A study of Mus musculus with 12 samples.

Results

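The genes described here encode the subunits of the mitochondrial respiratory chain and ATP synthase that are made from nuclear DNA. A gene was a member if its symbol began with Nduf, a letter a, b, c, s or v and a digit (complex I), was one of Sdha to Sdhd (complex II), or began with Uqcr (complex III), with Cox and a digit from 4 to 8 (complex IV) or with Atp5 (complex V), and if its raw counts summed to 120 or more over the 12 libraries. Of 84 symbols that matched, 79 were members, out of 23362 genes in all. Complex I had 35 members, complex II 4, complex III 8, complex IV 15 and complex V 17. The symbols decide the complex: Ndufa4, now known as a subunit of complex IV, stands under complex I. Atp5s and Atp5sl stand under complex V, though they are not known as structural subunits of it. The members nearest to the count threshold were Atp5g2 (127 counts), Cox4i2 (268), Cox7a1 (450), Cox7c (817) and Atp5l (1122). Below it lay Ndufa4l2 (28 counts), Cox7b2 (17), Cox8b (6), Ndufs5 (4) and Cox8c (1).

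Complex I passes electrons from NADH to ubiquinone and complex II passes them from succinate. Complex III hands them on to cytochrome c and complex IV to oxygen. Complexes I, III and IV pump protons out of the matrix, and complex V, the ATP synthase, makes ATP as the protons return. A few core subunits of each complex carry the cofactors or catalytic sites, and many small accessory subunits surround them. XBP1, missing in the knockout cells, switches on genes that relieve stress in the endoplasmic reticulum, the site where secreted proteins fold.

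The libraries came from C57BL/6 mice and formed 4 groups of 3. GMP WT were granulocyte-macrophage progenitors of wild-type mice, and GMP KO were those of Xbp1-deficient mice. GATA2-GMP WT and GATA2-GMP KO were such progenitors of the same 2 genotypes after transduction with GATA2, a second sort and 48 h in culture. The GMP were sorted into Trizol and their libraries made with TruSeq, whereas GATA2-GMP RNA was first amplified with a SMARTer kit for very low input. Differentiation, transduction, culture and library kit therefore change together between the stages and cannot be told apart. The Xbp1 allele, how it was deleted, the age of the mice and the animals behind each replicate number are not given in the sources used here, so p-values measure the spread between these libraries, which may be partly technical.

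Library totals ran from 8219366 to 33640911 counts. GMP markers (7 of 7 found, none at 0 in any group) summed to 30362 to 36564 CPM (counts scaled to a common library total) in GMP and to 2894 to 4939 CPM in GATA2-GMP. Eosinophil markers (10 of 10 found, none at 0 in any group) summed to 98.8 to 349 CPM (WT) and 432 to 825 CPM (KO) in GMP, and to 97816 to 142512 CPM (WT) and 45170 to 58215 CPM (KO) in GATA2-GMP. Mast cell and basophil markers (10 of 10 found) summed to 433 to 490 CPM in GMP, with Tpsab1 at 0 in both genotypes and Tpsb2 in the KO, and to 3522 to 10367 CPM in GATA2-GMP. Xbp1, unlike the marker sums, is given in CPM scaled by TMM over all 12 libraries. TMM, the trimmed mean of M-values, sets library sizes on the bulk of the genes. Xbp1 in GMP was at 131, 133 and 153 CPM in the WT libraries and 89.8, 55.9 and 56.8 CPM in the KO libraries. In GATA2-GMP it was at 381, 269 and 197 CPM (WT) against 99.9, 122 and 128 CPM (KO). The WT and KO values do not overlap at either stage, and whether the counted region lies in the deleted part is not given.

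In GMP the members together took 1.05 to 1.16% of all counts, with little spread between libraries. CPM from here on are scaled by TMM over all 12 libraries unless stated. On that scale complex I summed to 2162 ± 116 CPM in GMP WT and 2120 ± 107 CPM in GMP KO (SD, n = 3 in this paragraph). Complex II summed to 796 ± 32.3 and 803 ± 31.9 CPM, complex III to 856 ± 33.2 and 897 ± 42.3 CPM, complex IV to 1115 ± 50.5 and 1148 ± 39.7 CPM, and complex V to 3680 ± 155 and 3728 ± 110 CPM, in the same order. The WT and KO sums overlap in each of the 5 complexes. Between libraries of the same replicate number, which pair the GMP libraries, the KO sum was the higher in 3 of 3 pairs for complexes III and IV. It was the higher in 1 of 3 pairs for complex I and in 2 of 3 for complexes II and V, and these sums were not tested. Per kilobase of the longest annotated transcript, the highest level in GMP WT was that of Atp5b, the catalytic beta subunit of ATP synthase, at 689 ± 35.1 CPM per kb. It was followed by Atp5a1, the alpha subunit, at 410 ± 14.6 CPM per kb and by Cox4i1, the common isoform of subunit 4 of complex IV, at 401 ± 12.9 CPM per kb, which did not differ beyond their spread. Atp5g3, which encodes the c subunit of the ATP synthase ring, came next at 365 ± 11.9 CPM per kb and Ndufa4 at 301 ± 14.4 CPM per kb.

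**Figure D1:**
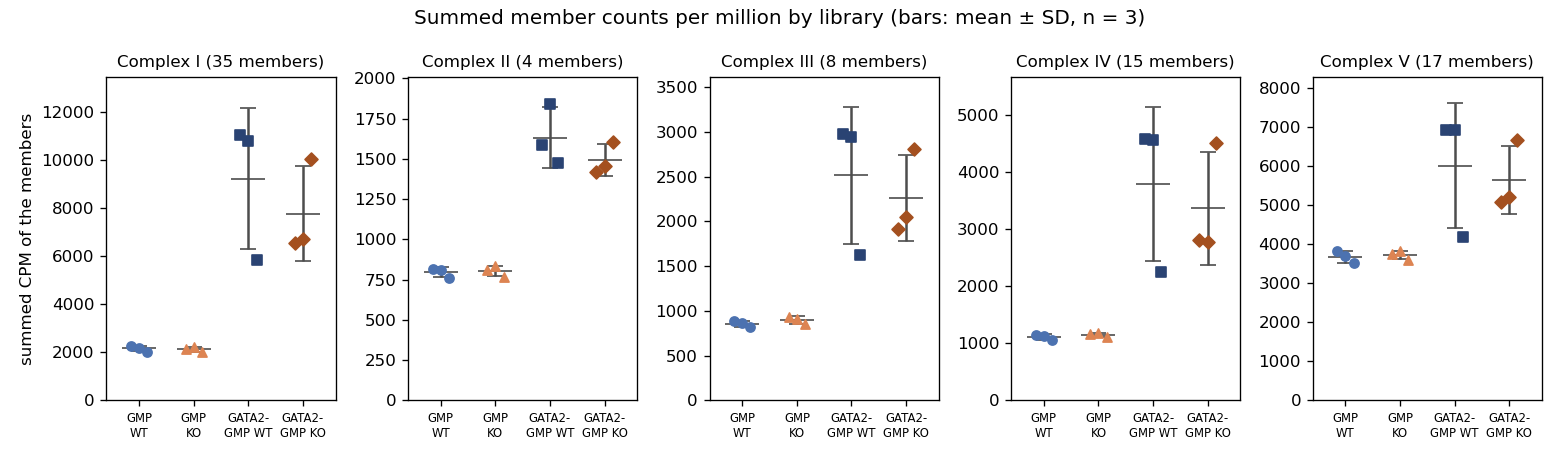
Summed CPM of the members of each complex (y axis, linear, from 0) in each of the 12 libraries (points), by group, with the mean and SD (n = 3). The GMP libraries lie close together, and in GATA2-GMP the third WT library lies below every KO library in complexes I and III to V.

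The first question of the study is which transcripts differ in Xbp1-deficient GMP. Among respiratory chain subunits the answer was 1 gene in the main fit, which takes no account of replicate numbers. With the replicate number as a block 4 members were called, and with all 12 libraries in 1 fit 0, as given below. In the main fit Ndufa9, an accessory subunit of complex I near the junction of its matrix and membrane arms, fell, and no member rose. Of 77 members tested (Cox7a1 and Atp5g2 were too low), 0 were higher and 1 was lower by edgeR's quasi-likelihood test with an adjusted p below 0.05, against a background of 0.658% of all genes higher and 2.52% lower. At an unadjusted p below 0.05, 2 members were higher and 3 lower, together 6.49% of those tested, against 14.5% of all genes. The median log2 fold change (KO minus WT) of the members was -0.017, beside 0.0058 over all genes tested, and 17 members had groups that do not overlap (22.1%), against 20.2% of all genes.

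Ndufa9 (ENSMUSG00000000399, mm9 chromosome 6, 126771881 to 126799162, minus strand) was at 85.3, 89.9 and 82.4 CPM in GMP WT and at 57.3, 68.7 and 59.4 CPM in GMP KO. Every KO library lies below every WT library. Its log2 fold change was -0.49 (SE 0.070, edgeR adjusted p = 0.0013), or 1.4-fold lower. In GATA2-GMP it was at 275, 400 and 270 CPM in WT and 219, 239 and 254.9 CPM in KO, where the groups again do not overlap and the difference of -0.40 did not pass the test (edgeR adjusted p = 0.46). The difference between these 2 genotype effects was 0.068 on the log2 scale (edgeR adjusted p = 0.94). Of the 50-base windows of its longest transcript, 1.6% occur elsewhere in the genome, and no other annotated gene overlaps its exons. The fall in GMP passed the test in 13 of 14 settings; it was lost when the 12 libraries were fitted together (log2 fold change -0.47, edgeR adjusted p = 0.996), where 0.125% of all genes were lower.

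The replicate numbers paired the GMP libraries: libraries of the same number deviated from their group means together (correlations across genes of 0.33, 0.30 and 0.21). With the replicate number as a block, 1 member was higher and 3 were lower, against a background of 3.3% higher and 4.73% lower. Uqcrc1, a core protein of complex III, was then higher (log2 fold change 0.20, edgeR adjusted p = 0.023), and Ndufa4 (-0.16, edgeR adjusted p = 0.043) and Cox7b, a small subunit of complex IV (-0.17, edgeR adjusted p = 0.047), were lower beside Ndufa9. Uqcrc1 was at 242, 236 and 243 CPM in GMP WT and 313, 265 and 261 CPM in GMP KO. Cox7b was at 98.7, 100 and 95.3 CPM in GMP WT and 85.2, 93.4 and 85.9 CPM in GMP KO, and Ndufa4 at 154, 149 and 140 CPM against 134, 141 and 125 CPM. The groups of Uqcrc1 and Cox7b do not overlap, while 1 KO library lies above 1 WT library for Ndufa4 on this scale. Without the block the 3 had edgeR adjusted p-values of 0.15 (Uqcrc1), 0.17 (Ndufa4) and 0.17 (Cox7b). In complex II and complex V the smallest p-values belonged to Sdhd, a membrane anchor of complex II (-0.048, edgeR adjusted p = 0.74), and Atp5d, the delta subunit of ATP synthase (-0.11, edgeR adjusted p = 0.42).

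**Figure D2:**
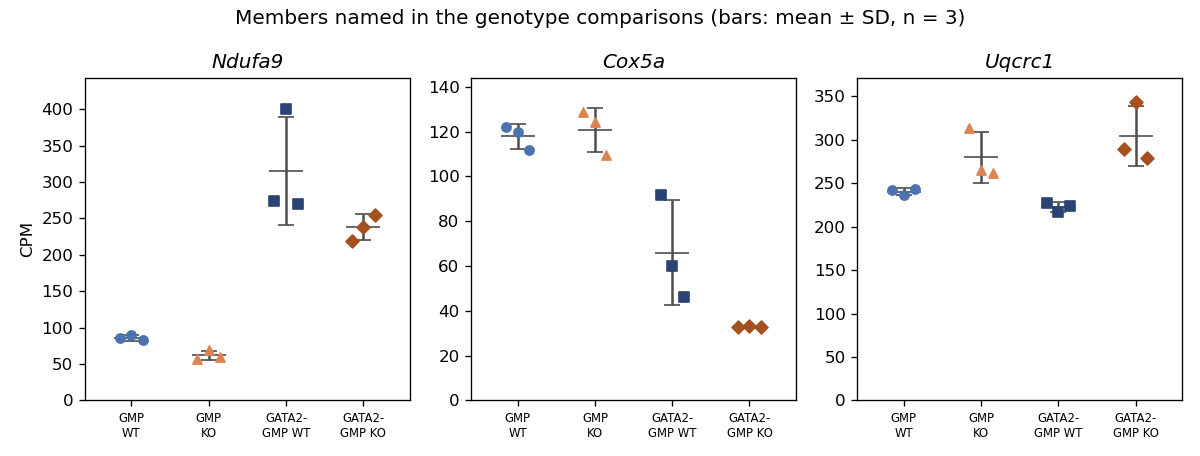
CPM (y axis, linear, from 0) of Ndufa9, Cox5a and Uqcrc1 in each library (points), by group, with the mean and SD (n = 3). Ndufa9 is lower in GMP KO than in GMP WT in every library, and Cox5a lies near 33 CPM in the 3 GATA2-GMP KO libraries and at 45.9 to 91.8 CPM in WT.

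The second question is which transcripts depend on XBP1 once GATA2 has been added. No member passed the test in GATA2-GMP. Of 79 tested, 0 were higher and 0 lower by edgeR's quasi-likelihood test, against a background of 0.103% of all genes higher and 0.274% lower. At an unadjusted p below 0.05, 4 were higher and 1 was lower, together 6.33%, against 14.9% of all genes. DESeq2 called 1 member lower, with a background of 2.62% lower and 2.23% higher. The members' median log2 fold change was -0.20, beside -0.0049 over all genes, and 58 of 79 were below 0. Groups that do not overlap were seen for 9 members (11.4%), against 22.6% of all genes.

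The libraries of each GATA2-GMP group were far apart for these genes. The members' summed level was 27112, 27098 and 15347 CPM in WT and 17782, 18192 and 25624 CPM in KO. The third WT library thus lay below every KO library, and the third KO library lay near the first and second WT libraries. The third WT library was the lowest of its group for 69 of 79 members (87.3%), against 37.1% of all genes tested, and the third KO library was the highest of its group for 71 members (89.9%), against 41.2% of all genes. Among other genes with a transcript of 1000 nt or less the shares were 80.1% and 83.8%, so other short genes showed the same order in most cases. Alignments that are not unique, which were not counted, made up 49.1, 52.3 and 40.3% of records in WT and 48.4, 48.1 and 55.0% in KO. In GMP they made up 41.1 to 42.9%. Whether this share bears on the members' levels was not tested. Without the third WT library the members' median was -0.45, and without the third KO library it was -0.41. Leaving out any 1 of the other 4 libraries gave medians from -0.11 to -0.062. RNA from fewer cells of a type and less RNA per cell cannot be told apart in such bulk libraries.

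Cox5a, a matrix-side subunit of complex IV, had the smallest p of any member in GATA2-GMP. It was at 91.8, 60.0 and 45.9 CPM in WT and at 33.0, 33.0 and 32.7 CPM in KO. The groups do not overlap, and the WT libraries lie far apart while the KO libraries lie close together. The log2 fold change was -1.0 (SE 0.28, edgeR adjusted p = 0.15). DESeq2 called it (-0.98, adjusted p = 0.033), as did edgeR with no filter on low counts (-1.01, adjusted p = 0.0497; background 0.885% lower), with all 12 libraries in 1 fit (adjusted p = 0.010; background 6.76% lower) and without the third WT library (-1.21, adjusted p = 0.030; background 2.0% lower). Cox5a (mm9 chromosome 9, 57369039 to 57380231, plus strand) did not differ in GMP, at 122, 120 and 112 CPM in WT and 129, 124 and 110 CPM in KO (log2 fold change 0.024, edgeR adjusted p = 0.90). A long noncoding RNA on the other strand, Gm17596, overlaps 38.7% of its exon bases. Whether counting used strand is not given in the sources used here, so reads of the pair may not be told apart.

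Among the members above 0, Cox6a2, the muscle isoform of subunit 6a of complex IV, stood at 0.23, 22.4 and 17.4 CPM in GATA2-GMP WT and at 61.4, 73.5 and 96.4 CPM in KO. The groups do not overlap, and the first WT library, with 3 raw counts, stands apart from the other two (log2 fold change 2.53, SE 0.91, edgeR adjusted p = 0.25). Uqcrc1 was at 228, 217 and 223 CPM in WT and 290, 343 and 279 CPM in KO, again without overlap (0.45, edgeR adjusted p = 0.34). Ndufb2, an accessory subunit of complex I, was at 13.2, 14.4 and 7.64 CPM in WT and 19.4, 17.98 and 25.8 CPM in KO (0.84, edgeR adjusted p = 0.25). In complex V the smallest p was that of Atp5sl (0.37, edgeR adjusted p = 0.45), and in complex II that of Sdhd (-0.23, edgeR adjusted p = 0.77). With all 12 libraries in 1 fit, Cox6a2, Ndufb2, Uqcrc1 and Ndufv1, the NADH-binding subunit of complex I, were called higher (4 members, background 4.66% higher) and Cox5a lower.

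Between the stages most members differed, and most of these were higher in GATA2-GMP. In wild-type cells 60 of 79 members were higher in GATA2-GMP than in GMP and 7 were lower by edgeR's quasi-likelihood test, against a background of 34.1% of all genes higher and 36.4% lower. In Xbp1-deficient cells 60 were higher and 6 lower, against 38.6% and 40.0%. The members' median log2 fold change was 2.09 in WT and 1.90 in KO, beside -0.092 and -0.055 over all genes tested. The 2 comparisons use different libraries, and 59 members were higher in both (98.3% of each list). The share of all genes called the same way in both was not counted, so this overlap has no background beside it. The 6 members lower in both were Atp5b, Atp5d, Cox5a, Ndufa10, Ndufb2 and Uqcrfs1.

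How the libraries are scaled bears on these counts. By library totals alone, 50 members were higher and 16 lower in WT (background 20.4% and 55.6%), and 55 were higher and 14 lower in KO (background 26.3% and 53.7%). That scaling moves the median of all genes to -0.93 in WT and -0.73 in KO, and the members' medians to 1.24 and 1.20. The distance between members and all genes was then 2.17 in WT and 1.94 in KO, and 2.19 and 1.96 by TMM.

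**Figure D3:**
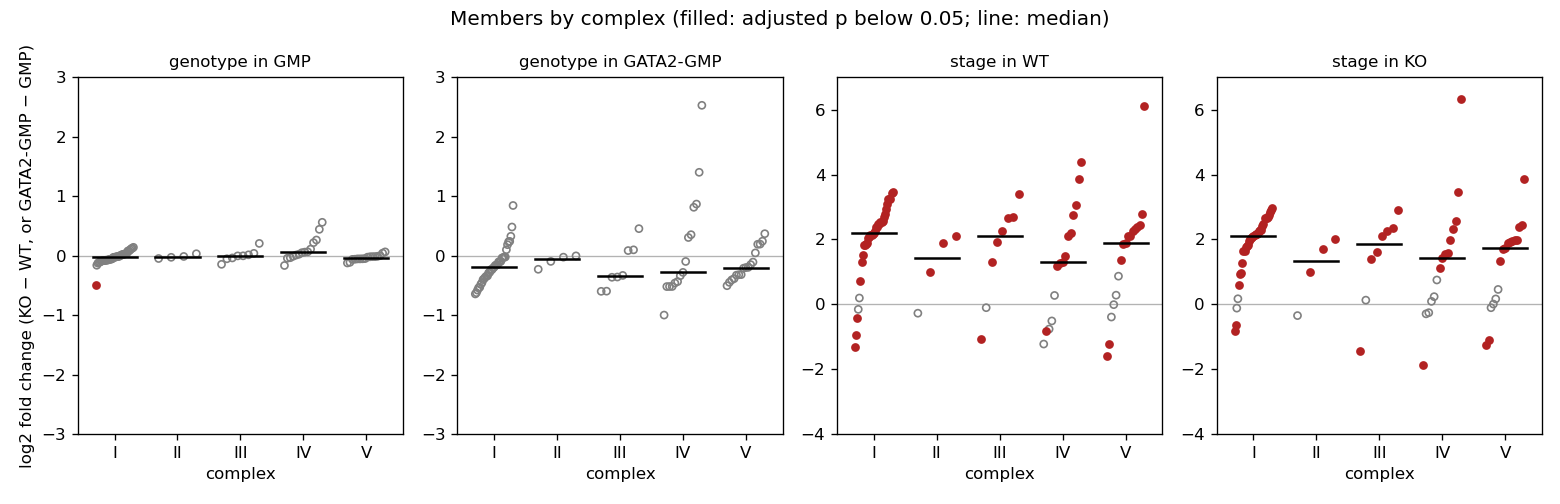
Log2 fold changes of the members (y axis) by complex (x axis) in the genotype comparisons (KO minus WT) and the stage comparisons (GATA2-GMP minus GMP); filled points passed the test and lines are medians. Genotype differences lie close to 0 in GMP, and most members of every complex lie above 0 in both stage comparisons, with 6 lower in both genotypes.

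Complex I had the highest share of members called higher between the stages. In WT 30 of its 35 members were higher and 3 lower (median 2.20), and in KO 31 were higher and 2 lower (median 2.11). The largest rise was that of Ndufb4, an accessory subunit, from 2.26, 2.55 and 2.70 CPM in GMP WT to 31.9, 34.5 and 15.5 CPM in GATA2-GMP WT (log2 fold change 3.45, SE 0.34, edgeR adjusted p = 6.4e-05). Of its 50-base windows 41.3% occur elsewhere in the genome, so its reads may be split among copies. Ndufa3, another accessory subunit, rose from 45.9, 47.0 and 43.2 CPM to 633, 526 and 304 CPM (3.43, edgeR adjusted p = 2.9e-05). Among the core subunits that bind NADH and the iron-sulphur clusters, Ndufv2 rose by 1.86, Ndufs7 by 2.18, Ndufs8 by 2.47 and Ndufs1 by 0.72 in WT. Ndufv1 was at 124, 121 and 109 CPM in GMP WT and then 119, 148 and 135 CPM in GATA2-GMP WT and was not called (0.19, edgeR adjusted p = 0.29); in KO it rose by 0.58. Ndufs3 was not called in either genotype (-0.16 in WT, 0.17 in KO). Ndufa10 fell by 0.96 in WT and by 0.82 in KO. Ndufb2 fell by 1.33 in WT and by 0.63 in KO.

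In complex II the 3 smaller subunits rose and the largest was not called. Sdhb, the iron-sulphur subunit, rose from 81.3, 91.4 and 79.8 CPM to 390, 450 and 246 CPM in WT (log2 fold change 2.11, SE 0.24, edgeR adjusted p = 1.4e-04). Sdhd rose by 1.89 and Sdhc, the other membrane anchor, by 0.99. Sdha, the flavoprotein that oxidises succinate, was at 425, 412 and 381 CPM in GMP WT and at 206, 274 and 522 CPM in GATA2-GMP WT (-0.27, edgeR adjusted p = 0.47). In the KO it was at 429, 423 and 405 CPM and then at 416, 410 and 156 CPM. The third WT library was the highest and the third KO library the lowest for Sdha, the reverse of their place for most members; without the third WT library Sdha was lower in GATA2-GMP WT (-0.66, edgeR adjusted p = 0.0032).

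Complex III had 6 of 8 members higher and 1 lower in each genotype (medians 2.09 in WT and 1.85 in KO). Uqcrb, a small subunit that helps to form the quinone site, rose the most, from 20.7, 20.1 and 20.6 CPM to 272, 251 and 117 CPM in WT (log2 fold change 3.39, SE 0.33, edgeR adjusted p = 5.7e-05), although 61.7% of its windows have copies elsewhere. Uqcrc2, a core protein, rose by 1.32 in WT and 1.40 in KO. Uqcrfs1, the Rieske iron-sulphur protein, fell from 112, 111 and 106 CPM to 65.2, 58.6 and 33.3 CPM in WT (-1.06, edgeR adjusted p = 0.0054) and from 113, 114 and 108 CPM to 35.3, 38.5 and 48.0 CPM in KO (-1.45, edgeR adjusted p = 2.2e-05). Uqcrc1 was not called in either genotype (-0.10 in WT, 0.13 in KO).

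In complex IV 10 of 15 members were higher and 1 lower in WT, and 9 were higher and 1 lower in KO (medians 1.29 and 1.42). Cox6c, a small subunit with 1 membrane span, rose by 3.07 in WT, Cox7a2 by 2.76, Cox4i1 by 2.21 and Cox6b1 by 2.11. Cox5a was the member that fell, by 0.83 in WT (edgeR adjusted p = 0.017) and by 1.87 in KO (edgeR adjusted p = 2.0e-06); without the second GATA2-GMP WT library its fall in WT was 0.71 and not called (edgeR adjusted p = 0.090). Cox8a, at 147, 144 and 115 CPM in GMP WT and then 76.7, 151 and 54.5 CPM in GATA2-GMP WT, was not called (-0.51, edgeR adjusted p = 0.22). It was called lower without the second GATA2-GMP WT library (-0.98, edgeR adjusted p = 0.0095), with the replicate block (-0.64, edgeR adjusted p = 0.048) and by library totals only (-1.36, edgeR adjusted p = 0.0082), 3 of 14 settings. Cox5b was not called either (-0.76, edgeR adjusted p = 0.065), which has copies elsewhere for 63.2% of its windows.

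Complex V had members that moved both ways. In each genotype 11 of 17 members were higher and 2 lower. Atp5b was at 1382, 1332 and 1248 CPM in GMP WT and at 665, 596 and 444 CPM in GATA2-GMP WT (log2 fold change -1.21, SE 0.20, edgeR adjusted p = 9.0e-04), and at 1409, 1405 and 1362 CPM and then 667, 638 and 641 CPM in KO (-1.09, edgeR adjusted p = 8.0e-05). Atp5a1, its partner in the head, was at 1133, 1100 and 1055 CPM in GMP WT and at 1062, 1052 and 1134 CPM in GATA2-GMP WT and was not called (-0.011, edgeR adjusted p = 0.95). Atp5d fell from 122, 119 and 114 CPM to 49.7, 46.0 and 20.3 CPM in WT (-1.61, edgeR adjusted p = 0.0022) and by 1.27 in KO. Atp5c1, the gamma subunit of the central stalk, rose by 1.89 in WT, Atp5e, the epsilon subunit beside it, by 2.33, and Atp5f1, a subunit of the peripheral stalk, by 2.45. Per kilobase, Atp5b was above Cox4i1 in GMP WT and stood at 297 ± 59.0 CPM per kb against 1840 ± 553 CPM per kb in GATA2-GMP WT (SD, n = 3). The order of levels between genes thus differed between the stages.

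Core subunits had lower medians between the stages than the others. Of 17 core subunits, 9 were higher and 3 lower in WT (median 0.72), and of the other 62 members 51 were higher and 4 lower (median 2.20). In KO the counts were 10 higher and 2 lower (median 0.94) and 50 higher and 4 lower (median 1.98). The core subunits also had longer transcripts, with a median of 1655 nt against 732.5 nt. The difference between these 2 sets was not tested.

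Transcript length moved with the stage difference over all genes. The members' longest transcripts had a median of 875 nt, against 2977.5 nt for the genes tested that have an annotated coding transcript. In WT the median log2 fold change of members was 2.54 for transcripts of 600 nt or less, 2.19 above that up to 1000 nt, 1.87 up to 2000 nt and 0.35 for longer ones. Other genes in the same classes had medians of 1.87, 1.55, 0.63 and -0.37. The medians of both sets were lower in longer classes, and the members' medians lay above those of other genes in each of the 4 classes, by 0.63 to 1.24. In KO the members' medians were 2.04, 1.98, 1.76 and 0.55, and those of other genes 1.88, 1.503, 0.67 and -0.36, a distance of 0.16 to 1.08. Genes of 1000 nt or less that are no members took 3.54 to 3.83% of counts in GMP and in GATA2-GMP 16.8 to 24.8% (WT) and 13.3 to 17.2% (KO). The part of length, and of the library kit, in the members' stage difference was not tested.

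**Figure D4:**
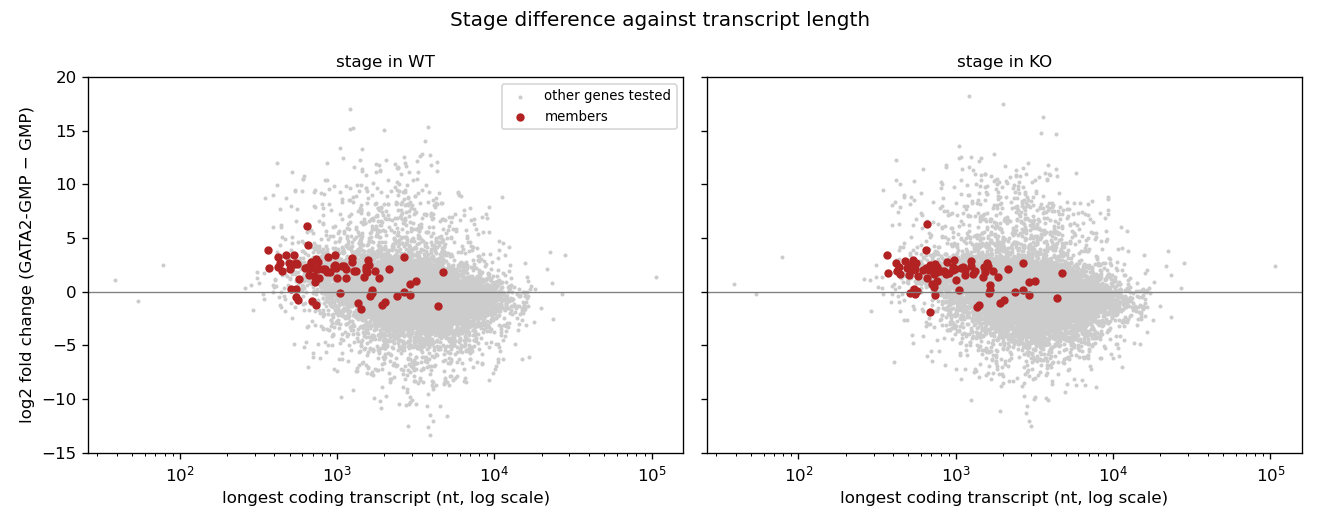
Log2 fold change between the stages (y axis, GATA2-GMP minus GMP) against the length of the longest coding transcript (x axis, log scale) for members (red) and all other genes tested (grey), in WT and KO. Members lie at short lengths, where other genes too lie above 0 more often than at long lengths.

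Several complex IV subunits have a common isoform and one found mainly in muscle, lung or testis. Outside the 6a pair, which is given below, the common isoforms were far above their partners in both stages. Cox4i1 was at 263 to 301 CPM in GMP and at 817 to 1517 CPM in GATA2-GMP, whereas Cox4i2, the lung isoform, was at 0.85 to 1.49 CPM and 0.077 to 1.58 CPM and was not called. Cox7a2 was at 73.1 to 82.4 CPM and 288 to 702 CPM, and Cox7a1, its muscle partner, at 0.29 to 0.45 CPM and 2.39 to 5.93 CPM. Cox7a1 rose by 3.87 in WT (edgeR adjusted p = 4.5e-05) and by 3.46 in KO (edgeR adjusted p = 1.5e-04). Cox6b2, the testis isoform, was at 10.2 to 14.8 CPM in GMP and 8.39 to 17.9 CPM in GATA2-GMP and was not called, while Cox6b1 was at 126 to 139 CPM and 310 to 725 CPM. Cox7a2l rose by 1.27 in WT and 1.54 in KO.

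Among the complex IV isoform genes, the minor isoform of the 6a pair had the largest log2 fold change between the stages in both genotypes. Cox6a1 was at 124, 123 and 114 CPM in GMP WT and at 239, 439 and 139 CPM in GATA2-GMP WT. Cox6a2 (mm9 chromosome 7, 135348950 to 135349880, minus strand) was at 0.68, 0.40 and 0.85 CPM in GMP WT and 0.97, 0.97 and 0.90 CPM in GMP KO. It rose in WT (log2 fold change 4.39, SE 1.18, edgeR adjusted p = 0.011) and in KO (6.34, SE 0.24, edgeR adjusted p = 1.8e-07). In GATA2-GMP KO it stood at 61.4, 73.5 and 96.4 CPM beside 298, 233 and 476 CPM of Cox6a1. The first GATA2-GMP WT library, at 0.23 CPM, did not share in the rise. Itgad on the other strand overlaps 10% of its exon bases and was at 0.54 CPM or less in every library.

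**Figure D5:**
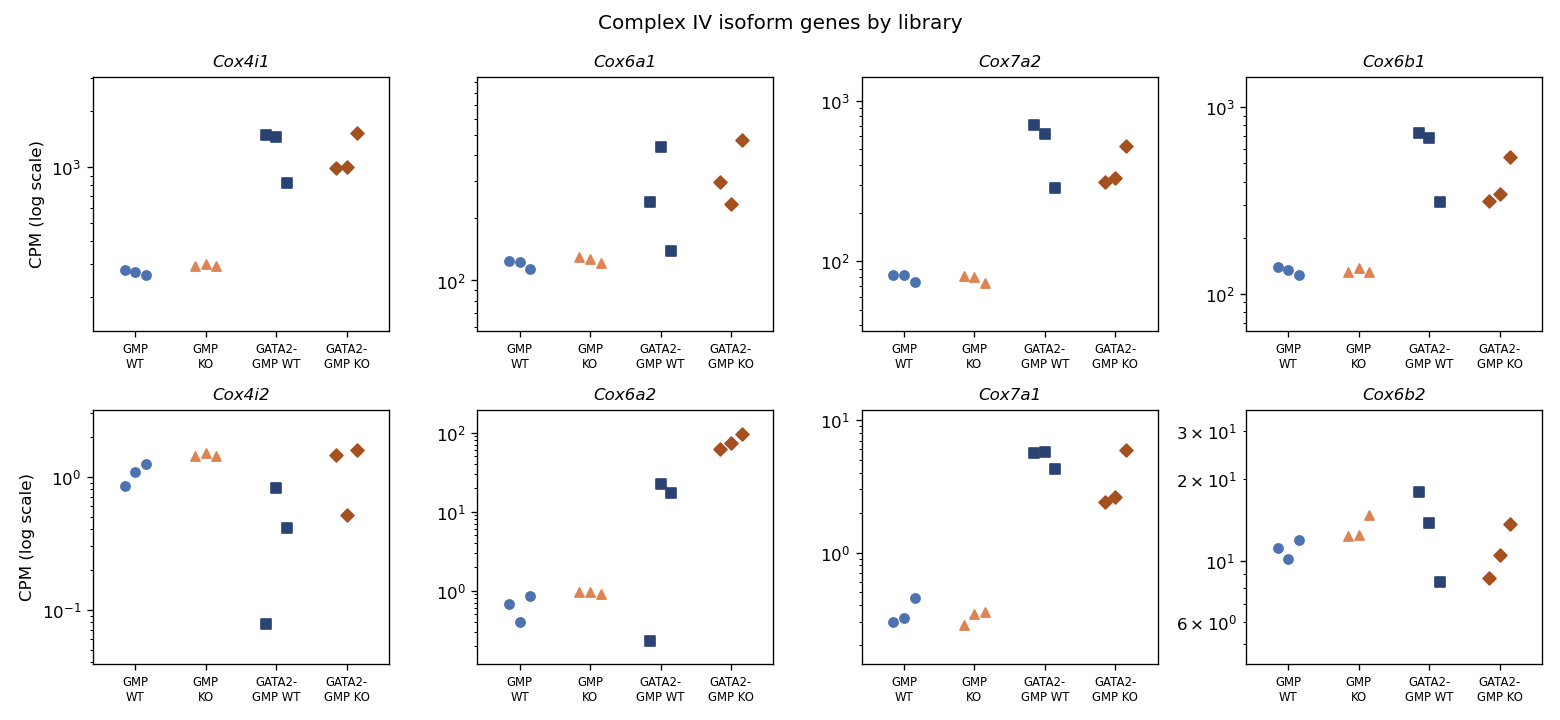
CPM (y axis, log scale, a different range in each panel) of complex IV isoform genes in each library (points), by group, with the common isoform above and its partner below. Cox6a2 lies below 1 CPM in GMP and at 61.4 to 96.4 CPM in GATA2-GMP KO, with 1 GATA2-GMP WT library at 0.23 CPM.

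The 3 genes of the ATP synthase c subunit encode the same mature protein. Atp5g3 was the most abundant and was not called between the stages (0.87 in WT, edgeR adjusted p = 0.057; 0.46 in KO, edgeR adjusted p = 0.077). In WT it was called higher in 5 of 14 settings: RLE scaling, DESeq2, the replicate block, all 12 libraries in 1 fit (adjusted p of 0.018 to 0.048 in these 4) and without the third GATA2-GMP WT library (1.30, edgeR adjusted p = 6.7e-06). Atp5g1 rose by 1.86 in WT and 1.70 in KO. Atp5g2 had 0, 1 and 0 raw counts in GMP WT, 2, 2 and 2 in GMP KO, 24, 20 and 22 in GATA2-GMP WT and 20, 21 and 13 in GATA2-GMP KO. It was called higher in both genotypes, and every 50-base window of its transcript occurs elsewhere in the genome, so these few reads measure the gene poorly.

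No member passed the test of a genotype effect that differs between the stages. In the interaction over all 12 libraries 0 members were higher and 0 lower by edgeR's quasi-likelihood test, against a background of 0.0312% and 0.0547% of all genes. At an unadjusted p below 0.05, 2 were higher and 1 was lower, and DESeq2 called 1 member lower, with a background of 4.55% lower and 1.87% higher. Cox5a had the smallest p (difference -1.04 on the log2 scale, SE 0.28, edgeR adjusted p = 0.12), and it was the member that DESeq2 called (-1.07, adjusted p = 0.018). Without the third GATA2-GMP WT library 3 members were lower, Cox5a (-1.24, edgeR adjusted p = 0.0084), Uqcrfs1 (-0.64, edgeR adjusted p = 0.0495) and Ndufa11, a complex I subunit, against a background of 4.7% lower. For Cox6a2 the difference was 1.94 with an SE of 1.27 (edgeR adjusted p = 0.53).

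Promoters of these genes are known for sites of NRF1, GABP and YY1. RefSeq promoters (GRCm38.p6, 250 bases before to 50 after the start) were matched to 66 of the 79 members. The NRF1 motif GCGCATGC, searched on both strands as were all motifs, was found in 10 of them (15.2%). It was found in 2.71% of all 32851 promoters of that length and for 3.94% of the 17492 protein-coding genes with a promoter entry. Members and protein-coding genes count once if any of their promoters holds the motif, so the second share is the one of like unit. Both shares follow in this order for the other motifs. The GABP motif CCGGAAG was found in 16 (24.2%), beside 8.86% and 12.9%. The YY1 motif AAGATGGC was found in 11 (16.7%), Ndufa9 among them, beside 2.75% and 3.57%. A motif of the XBP1 type, TGACGTGG, was found in 1 member, Atp5s (1.52%, beside 0.676% and 0.823%). No motif contains another. Of the 6 members with a promoter entry that fell between the stages in WT, 0 held the NRF1, GABP or YY1 motif. Of the 50 that rose, 8 held the NRF1, 13 the GABP and 10 the YY1 motif. Of the 10 not called, 2 held the NRF1, 3 the GABP and 1 the YY1 motif. The difference between these classes was not tested.

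The 150 bases before the start are shown for Ndufa9, Cox5a and Cox6a1. Ndufa9 was the member called between genotypes in GMP in the main fit. Cox5a fell between the stages and had the smallest genotype p in GATA2-GMP, and Cox6a1 has a promoter with a motif in this stretch. In this order the stretches lie on GRCm38.p6 at chr6:126849145-126849294 (minus strand), chr9:57521082-57521231 (plus strand) and chr5:115348959-115349108 (minus strand). Sequences are written 5′ to 3′ in the direction of the gene, and capitals mark a motif, here the reverse complement of the GABP motif in Cox6a1.
Ndufa9: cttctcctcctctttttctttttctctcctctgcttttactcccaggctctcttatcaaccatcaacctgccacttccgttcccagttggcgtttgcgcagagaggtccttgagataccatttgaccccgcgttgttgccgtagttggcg
Cox5a: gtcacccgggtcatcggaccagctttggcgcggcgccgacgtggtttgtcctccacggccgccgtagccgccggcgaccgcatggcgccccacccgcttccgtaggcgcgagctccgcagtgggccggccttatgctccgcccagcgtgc
Cox6a1: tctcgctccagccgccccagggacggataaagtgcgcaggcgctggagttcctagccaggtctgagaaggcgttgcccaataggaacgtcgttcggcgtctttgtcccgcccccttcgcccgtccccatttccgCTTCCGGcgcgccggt
The stretches of Ndufa9 and Cox5a hold none of the 4 motifs; the YY1 motif of Ndufa9 and the NRF1 motif of Cox6a1 lie outside the stretch shown.

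Other genes of the organelle were followed by lists. In GMP the genotype calls were 0 for the 41 assembly factors tested, the 19 electron carriers and subunits with other symbols, the 18 regulators of mitochondrial biogenesis, the 75 mitochondrial ribosomal proteins and the 14 genes of oxygen radical defence and uncoupling. Of 19 tricarboxylic acid cycle enzymes 1 was lower, Idh2, at a mean of 435 CPM in WT and 370 CPM in KO, here scaled by TMM over the 6 GMP libraries (log2 fold change -0.24, edgeR adjusted p = 0.035). Of 85 symbols of cytosolic ribosomal proteins 1 was higher, Rps6ka1, a kinase that the symbol pattern takes in, and 1 was lower, Rpl36al. In GATA2-GMP 0 genes of these lists were called between genotypes.

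Between the stages in WT, 49 of 75 mitochondrial ribosomal proteins were higher and 10 lower (median 1.35), as were 57 and 11 of 95 cytosolic ribosomal symbols (median 1.18). Assembly factors had 19 of 41 higher and 9 lower (median 0.43). Cox17, the copper chaperone of complex IV, rose the most among them (3.07, edgeR adjusted p = 3.0e-05). Of the carriers and other subunits 9 of 19 were higher and 5 lower (median 0.34), with Atpif1, the inhibitor of ATP synthase, rising by 2.40. Tricarboxylic acid cycle enzymes had 9 of 19 higher and 3 lower (median 0.52). Mdh2 rose by 2.71 and Idh2 fell by 2.47. Of 14 genes of oxygen radical defence and uncoupling 10 were higher and 3 lower (median 1.45), with Prdx5, a mitochondrial peroxidase, rising by 3.09. Regulators of mitochondrial biogenesis went the other way, with 3 of 18 higher and 10 lower (median -0.70). Esrra, a nuclear receptor of the programme, fell from a mean of 36.1 CPM to 1.47 CPM, scaled by TMM over the 6 WT libraries (-4.63, edgeR adjusted p = 2.6e-05). The members' median of 2.09 lay above that of each of these lists. Median transcript lengths were 875 nt for the members, 924.5 nt for cytosolic and 1213 nt for mitochondrial ribosomal proteins, 2160 nt for assembly factors and 3488 nt for the regulators. Transcripts of the mitochondrial genome are not analysed here.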

How the data were processed

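The values used were whole-number read counts per gene symbol as the authors deposited them, 1 table per library and not normalized, judging by totals that differ between libraries. The submitters' processing notes name the build mm9 and the tools DESeq, HTSeq, SAMtools 0.1.14 and STAR 2.3.0, with no role for any; strand setting and annotation are not given in the sources used here. The 5 counter rows for reads not assigned to a gene, 55.8 to 66.5% of records, were left out. Most of these records were alignments that are not unique, at 40.3 to 55.0% of all records. Of gene names turned into dates, 23 were restored and 4 genes left out. The members and lists were chosen with earlier results of these data known. Genes were tested with edgeR 4.0.16 (R 4.3.3): filterByExpr, TMM, glmQLFit with robust=TRUE and glmQLFTest within the libraries of each comparison, Benjamini-Hochberg adjustment over every gene in the fit, with 0.05 as the threshold. The SE is the log2 fold change over the root of its F statistic. Alternatives were other scalings, no filter, DESeq2 1.42.0, a replicate block, all 12 libraries in 1 fit and leaving out each library. Replicate numbers paired the libraries in GMP only, as given with that comparison. The fits were tested on simulated data. Lengths, exon overlaps and copies of 50-base windows came from the NCBIM37 genome and GENCODE vM1. The result of 1 member is not reported here. Members were named by rule: the largest called rise and fall or the smallest p of each complex, the highest count, isoform genes, core subunits and members near the count threshold; Ndufa3, Cox5b, Cox6c, Atp5e, Atp5f1 and Ndufa11 were chosen after their values were seen.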

Additional observations from a re-analysis of the deposited data

How the results depend on the processing

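Counts of members higher and lower stayed within 1.5 times under the alternatives except as follows. In GMP the replicate block gave 1 higher and 3 lower, and all 12 libraries in 1 fit gave 0 lower. In GATA2-GMP no filter on low counts gave 1 lower, DESeq2 gave 1 lower, and all 12 libraries in 1 fit gave 4 higher and 1 lower. Library totals only gave 16 lower between the stages in WT and 14 in KO. DESeq2 gave 1 lower in the interaction. Leaving out each replicate in turn gave 0 to 0 higher and 1 to 1 lower for genotype in GMP, 0 to 0 and 0 to 1 in GATA2-GMP, 58 to 63 and 6 to 8 for stage in WT, 60 to 62 and 6 to 8 in KO, and 0 to 0 and 0 to 3 in the interaction; the highest of these in GATA2-GMP genotype and in the interaction came without the third WT library. Under library totals only, 5 stage differences of named members that were called in the main fit or in this one changed sign. They were Ndufs1 (-0.11) and Ndufv1 (-0.64) in WT, and Atp5a1 (-0.50), Ndufv1 (-0.10) and Uqcrc1 (-0.55) in KO. The median of all genes moves down under this scaling, as given above. Values without a call changed sign too. Cox8a between the stages in KO ran from -0.47 to 0.44 over the settings, and Sdha between genotypes in GATA2-GMP from -0.28 to 0.45. The replicate block outside GMP, where same-numbered libraries correlated at -0.18, -0.35 and -0.53 in GATA2-GMP and at -0.046 to 0.062 between the stages, called 0 members between genotypes in GATA2-GMP and 0 in the interaction, and 69 members between the stages in WT and 66 in KO, against 67 and 66 without it. Of the values of named members under the alternatives, 2414 kept their side of the threshold, though uncalled values among them may have changed sign. A call was gained by 37 and lost by 23, and the 5 named above changed sign with a call in 1 or both fits. The cause was not tested where an alternative changed a call.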
